A study of Mus musculus with 4 samples.

Results

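Adhesion molecules of the immunoglobulin superfamily and the leukocyte integrins that bind them were followed in RNA-seq libraries of sorted mouse group 3 innate lymphoid cells (ILC3s). The set held 10 genes of the 24343 in the deposited table: the ligand genes Icam1, Icam2, Madcam1 and Vcam1 and the integrin subunit genes Itgal, Itgb2, Itga4, Itgb7, Itgb1 and Itgae. They were taken by name after the deposited transcript counts had been matched to gene symbols and summed per gene, and they had been chosen by name with the TL1A and medium read counts of these same libraries in view. Their differences between the conditions are therefore given as a description without p-values, and a count of genes past the threshold supports nothing further. Of the 10 genes, 9 had enough reads to be among the 9852 genes tested, and Itgal had none.

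Integrins are paired receptors of an alpha and a beta chain. Lymphocytes use them to hold on to endothelium, to epithelium and to each other, after signals inside the cell have switched the receptor to its binding state. LFA-1, made of the chains encoded by Itgal and Itgb2, binds ICAM-1 and ICAM-2. The alpha4 chain of Itga4 pairs with beta7 of Itgb7 to bind MAdCAM-1, the addressin of gut venules, and with beta1 of Itgb1 to bind VCAM-1 and fibronectin. The beta7 chain also pairs with alphaE of Itgae, known as CD103, which binds E-cadherin on epithelial cells. In the gut these pairs steer lymphocyte homing and retention.

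There were 2 libraries of ILC3s stimulated with TL1A, a TNF superfamily cytokine, and 2 of ILC3s kept in medium; the medium libraries are those whose labels do not mark stimulation. The cells of all 4 libraries were sorted as Lin-CD127+IL23R-GFP+ from mice of the genotype IL23R-GFP/WT, so every library shares the reporter allele at one copy of the IL-23 receptor locus. The age of the mice, the tissue, the dose and the time are not stated in the labels. Nor do the labels tie the libraries to separate mice or cultures, so the spread between replicates, on which each p-value rests, may be technical. Assigned reads numbered 11849977 and 12605164 in the TL1A libraries, against 11495636 and 12222552 in the medium libraries. The defining genes of the sort were present: Il7r, which encodes CD127, had 1200 ± 12.5 CPM with TL1A and 3606 ± 77.2 CPM in medium, and Il23r had 647.6 ± 22.2 CPM with TL1A and 1001 ± 7.93 CPM in medium (SD, n = 2 each).

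The start-site regions of the genes at the extremes of the set are shown first, because Icam1 and Madcam1 were the ligand genes with the highest level and the highest ratio under TL1A and Itgb7 had the lowest ratio. RefSeq promoter windows of build GRCm38.p6 were matched by symbol for 5 of the 10 genes: Icam1, Madcam1, Itga4, Itgb7 and Itgb1. The 250 bases before the start are printed 5′ to 3′ on the gene's strand, at chr9:21015690-21015939 (plus strand) for Icam1, chr10:79664309-79664558 (plus strand) for Madcam1 and chr15:102231936-102232185 (minus strand) for Itgb7. Capitals mark matches on either strand to the NF-κB consensus or to GGAAATTCC, the form of site known from ICAM-1 promoters. The letters of every motif searched were settled after these windows had been read, and a further NF-κB form written from the Madcam1 window was searched and is not reported.
Icam1: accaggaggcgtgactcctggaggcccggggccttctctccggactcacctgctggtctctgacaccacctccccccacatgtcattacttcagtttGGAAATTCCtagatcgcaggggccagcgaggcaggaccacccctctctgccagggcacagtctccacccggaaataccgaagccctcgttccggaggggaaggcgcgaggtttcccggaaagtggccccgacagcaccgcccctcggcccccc
Madcam1: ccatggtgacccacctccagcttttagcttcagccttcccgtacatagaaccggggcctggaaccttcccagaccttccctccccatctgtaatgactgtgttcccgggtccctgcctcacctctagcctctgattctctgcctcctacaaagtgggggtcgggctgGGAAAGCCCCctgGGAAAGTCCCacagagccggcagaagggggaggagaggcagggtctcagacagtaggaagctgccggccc
Itgb7: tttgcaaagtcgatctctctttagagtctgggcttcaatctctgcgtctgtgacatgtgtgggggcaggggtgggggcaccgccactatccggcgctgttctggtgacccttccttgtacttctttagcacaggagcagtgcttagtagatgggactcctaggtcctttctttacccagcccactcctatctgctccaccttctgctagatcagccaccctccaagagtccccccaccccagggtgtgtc

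NF-κB, the factor family that TNF receptors activate, binds sites of this kind. The Icam1 window held 1 match to GGAAATTCC, starting 153 bases before the start, a motif found in 0.317% of the 32851 promoter windows of the same length. The Madcam1 window held 2 matches to the NF-κB consensus on the reverse strand, starting 83 and 70 bases before the start, and at least 2 such positions occurred in 1.22% of all windows, while at least 1 occurred in 8.46%. The windows of Itga4, Itgb7 and Itgb1 held no match to either motif, and no match to one overlapped a match to the other. The RUNX motif TGTGGT, searched on both strands, matched 1 time in the Itga4 window, and 16.8% of all windows held it. A match describes letters in a window and says nothing of binding in these cells, and since the motifs were settled with the windows in view, the shares of all windows are a description only.

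**Figure D1:**
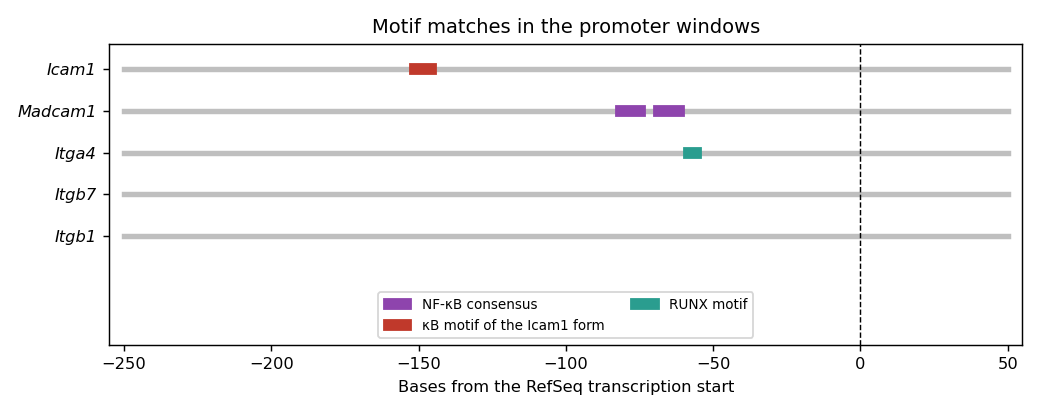
Motif matches (coloured boxes, box width to scale) in the promoter windows of 5 genes, by distance in bases from the RefSeq transcription start (dashed line); each grey line is a window of 250 bases before to 50 after the start. Icam1 has 1 NF-κB type match, Madcam1 has 2, and Itgb7 and Itgb1 have none.

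The ligand genes Icam1, Madcam1 and Vcam1 were far higher with TL1A, and the integrin chains moved in opposite directions. The threshold was a Benjamini-Hochberg adjusted p of 0.05 over all tested genes in edgeR. Among the 9 tested genes, 8 were past it, against 42.3% of all tested genes; 5 of these were higher with TL1A, against 20.6% of all tested genes, and 3 were lower, against 21.7%. Without scaling factors the median of all genes moved by -0.258 on the log2 scale and the calls over all genes split into 1310 higher and 3475 lower, in place of 2027 and 2141; the direction of each of the 9 genes was the same under that scaling. In CPM the TL1A libraries did not overlap with the medium libraries for 9 of the 9 genes, which also held for 72.2% of all tested genes. CPM here are reads scaled by the TMM effective library size. In bulk libraries a change in the number of cells that express a gene and a change in RNA per cell cannot be told apart.

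Icam1, which encodes the main ligand of LFA-1, had 63215 and 65510 reads in the TL1A libraries, against 2820 and 3240 in the medium libraries. These made 0.533% and 0.52% of all assigned reads with TL1A and 0.0245% and 0.0265% in medium. Both stimulated libraries were far above both medium libraries, and the libraries of a condition lay close together. The level was 5764 ± 164 CPM with TL1A and 233.6 ± 12.8 CPM in medium (SD, n = 2 each), 24.7-fold higher with TL1A (log2 fold change 4.62, SE 0.07). Per kilobase of transcript, Icam1 ranked 18 of 8471 tested single-row genes with TL1A and 934 in medium. An opposite-strand gene, Gm47079, overlaps an Icam1 exon in the GRCm38 annotation, and the labels do not state whether counting used strand.

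Icam2, which encodes a second LFA-1 ligand that many resting leukocytes carry, went the other way. It had 157 and 154.5 CPM in the TL1A libraries, against 235.3 and 248.9 CPM in the medium libraries. The groups did not overlap, and Icam2 was 1.55-fold lower with TL1A (log2 fold change -0.64, SE 0.08). Per kilobase, the Icam1 level was 18.9 and 18.5 times that of Icam2 in the TL1A libraries, against 0.483 and 0.493 times in the medium libraries, so the order of the 2 ligand genes was opposite in the 2 conditions.

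Madcam1, which encodes the gut addressin bound by the alpha4 beta7 pair, had 709 and 657 reads in the TL1A libraries, against 0 and 0 in the medium libraries. This corresponds to 65.9 and 56.7 CPM with TL1A. Against a floor of 3 reads over the medium group, 0.116 CPM, the level with TL1A was at least 528-fold higher (log2 of at least 9.04). Per kilobase, Madcam1 was the fourth of the 9 genes with TL1A, at 42.7 ± 4.58 CPM per kb, and the lowest in medium. Of the protein-coding genes next to it, Shc2 and Odf3l2 had 0 reads in every library, and Tpgs1 and Cdc34 did not pass the threshold, with log2 fold changes of 0.55 (SE 0.50; adjusted p = 0.414 in edgeR) and 0.28 (SE 0.18; adjusted p = 0.246 in edgeR).

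Vcam1, which encodes a ligand of the alpha4 beta1 pair best known on activated endothelium and stroma, had few reads in both conditions. It had 277 and 155 reads in the TL1A libraries, against 13 and 7 in the medium libraries. The stimulated libraries differed from each other, at 25.8 and 13.4 CPM, yet both lay above the medium libraries, at 1.04 and 0.524 CPM. The log2 fold change was 4.64 (SE 0.46), and it ranged from 4.10 to 5.18 when 1 library at a time was left out. The opposite-strand gene Gm43109 overlaps a Vcam1 exon in the annotation.

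**Figure D2:**
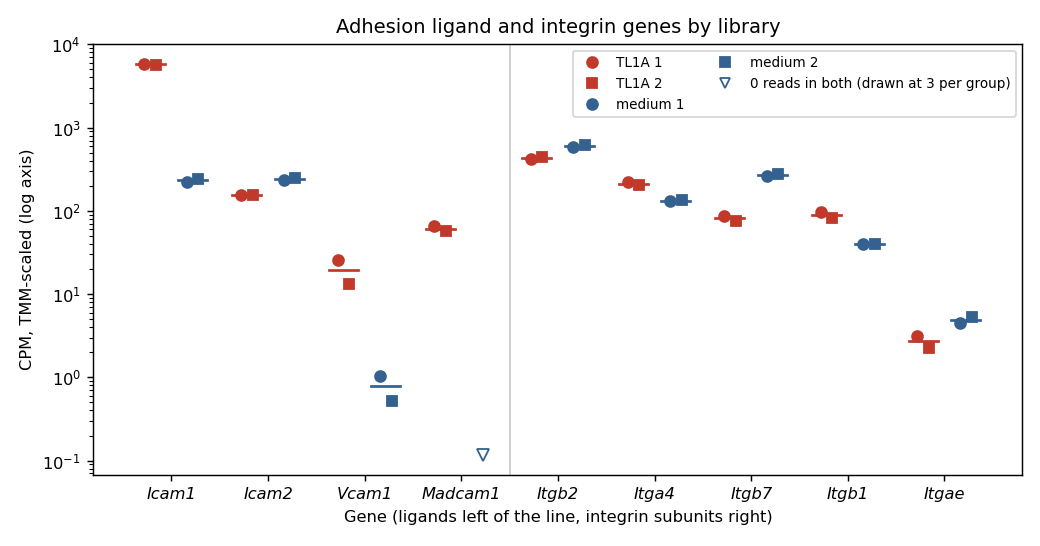
CPM on a log axis for 9 genes, 1 point per library, with TL1A libraries in red left of medium libraries in blue; short lines are group means (n = 2) and the open triangle marks Madcam1 in medium, with 0 reads in both libraries, at the floor of 3 reads over the group (0.116 CPM). Icam1, Vcam1 and Madcam1 stand far above their medium level with TL1A, and Itgb7 stands below it.

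Among the integrin chains of the set, Itgb2 was the most abundant per kilobase in both conditions. It encodes beta2, the chain of LFA-1 and of the myeloid integrins. Itgb2 had 425.1 and 439.9 CPM in the TL1A libraries, against 577.9 and 611.7 CPM in the medium libraries. The groups did not overlap, and the gene was 1.38-fold lower with TL1A (log2 fold change -0.46, SE 0.07). Fcer1g, which made up most of the myeloid marker list, was lower as well (690.5 CPM with TL1A, 1640 CPM in medium). Other markers of that list, picked after their values were seen, went both ways: Cd14 had 5.22 CPM with TL1A and 47.5 CPM in medium, Zbtb46 had 43.5 CPM with TL1A and 6.96 CPM in medium, and Adgre1 had 16.1 CPM with TL1A and 8.62 CPM in medium. The part of this list in the Itgb2 difference was not tested.

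The alpha partners of beta2 were hardly counted. Itgal, the alpha chain of LFA-1, had 0 reads in every library in each of its 4 deposited transcript rows. Reads in exons shared by several rows were set aside as ambiguous, so this is no measure of the gene. Itgam, the alpha chain of the macrophage receptor Mac-1, also had 0 reads in its 2 rows. Itgax, the CD11c chain with 1 row, had 9 and 9 reads with TL1A and 13 and 41 in medium. LFA-1 could therefore not be described as a pair.

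The 2 beta chains that share alpha4 moved apart. Itgb7 had 930 and 874 reads in the TL1A libraries, against 3326 and 3681 in the medium libraries. Its level was 80.9 ± 7.88 CPM with TL1A and 270.3 ± 7.67 CPM in medium, 3.34-fold lower with TL1A (log2 fold change -1.74, SE 0.10). Itgb1 had 1033 and 958 reads in the TL1A libraries, against 508 and 534 in the medium libraries. Its level was 89.3 ± 9.53 CPM with TL1A and 40.2 ± 0.323 CPM in medium, 2.22-fold higher (log2 fold change 1.15, SE 0.12). Neither gene had overlapping groups.

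Itga4, their shared alpha chain, had 2364 and 2378 reads in the TL1A libraries, against 1635 and 1794 in the medium libraries, or 212.4 ± 10.5 CPM with TL1A and 132.3 ± 2.95 CPM in medium. It was 1.61-fold higher with TL1A (log2 fold change 0.68, SE 0.08), with no overlap between the groups. Itga4 exons overlap the opposite-strand gene Cerkl in the annotation. Cerkl had 59 and 80 reads with TL1A and 228 and 230 in medium, the opposite direction to Itga4.

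Set side by side per kilobase, the beta7 transcript made 56.1% and 56.5% of the sum of beta7 and beta1 in the TL1A libraries, against 90.3% and 90.7% in the medium libraries. The ratio of Itgb7 to Itgb1 was 1.28 and 1.30 with TL1A and 9.31 and 9.80 in medium. The 2 beta genes together came to 57.4 and 49.7 CPM per kb with TL1A and 109 and 113 CPM per kb in medium, while Itga4 was 0.392 and 0.422 times that sum with TL1A and 0.122 and 0.121 times in medium. Beta7 was the higher of the pair in each library. Ratios within a library do not depend on the scaling factor, but they do depend on the transcript lengths used.

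**Figure D3:**
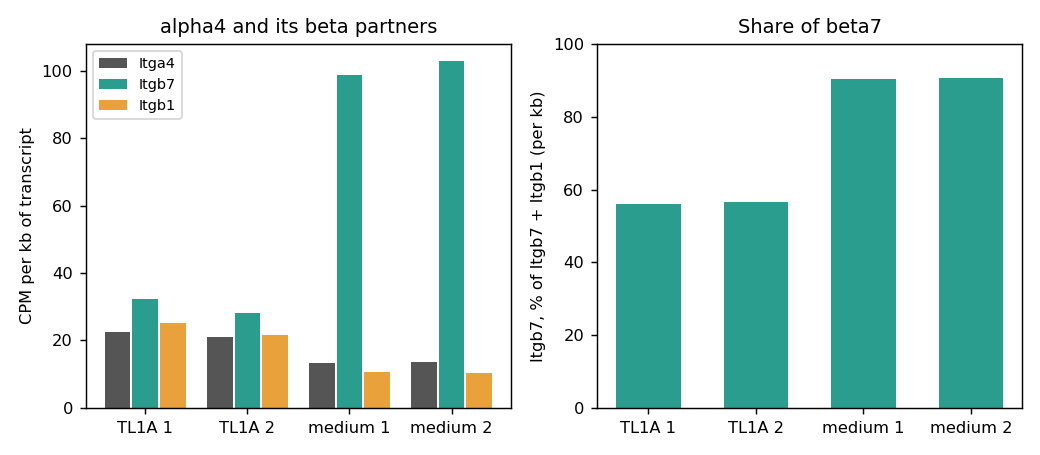
Left, CPM per kilobase of transcript for Itga4, Itgb7 and Itgb1 in each library (1 bar per gene and library, no error bars); right, Itgb7 as a percentage of Itgb7 plus Itgb1 per kilobase. The share of Itgb7 is 56.1% and 56.5% in the TL1A libraries and 90.3% and 90.7% in the medium libraries.

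Itgae, the alphaE chain that pairs with beta7, was near the limit of what these libraries measure. It had 34 and 26 reads in the TL1A libraries, against 57 and 70 in the medium libraries. The groups did not overlap in CPM, the log2 fold change was -0.86 (SE 0.32), and Itgae was the 1 tested gene of the set that did not pass the threshold. Per kilobase it stood at 0.703 ± 0.169 CPM with TL1A and 1.27 ± 0.129 CPM in medium, far below Itgb7 in every library. Cdh1, which encodes its ligand E-cadherin, had 1 and 0 reads with TL1A and 5 and 7 in medium.

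The order of levels per kilobase differed between the conditions. With TL1A it ran from Icam1 (2274 ± 64.5 CPM per kb) through Itgb2 (146 ± 3.53), Icam2 (121 ± 1.38), Madcam1, Itgb7 (30.2 ± 2.94), Itgb1 (23.4 ± 2.5), Itga4 (21.8 ± 1.07) and Vcam1 (5.64 ± 2.53) to Itgae. Itgb1 and Itga4 overlapped between libraries in that order. In medium it ran from Itgb2 (200.3 ± 8.05 CPM per kb) through Icam2 (189 ± 7.49), Itgb7 (101 ± 2.86), Icam1 (92.2 ± 5.05), Itga4 (13.5 ± 0.302), Itgb1 (10.5 ± 0.0846) and Itgae to Vcam1 (0.225 ± 0.104) and Madcam1. The means of Itgb2 and Icam2 differed there by less than the sum of their SDs. These levels use the length of the GENCODE M21 transcript matched to each RefSeq row.

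**Figure D4:**
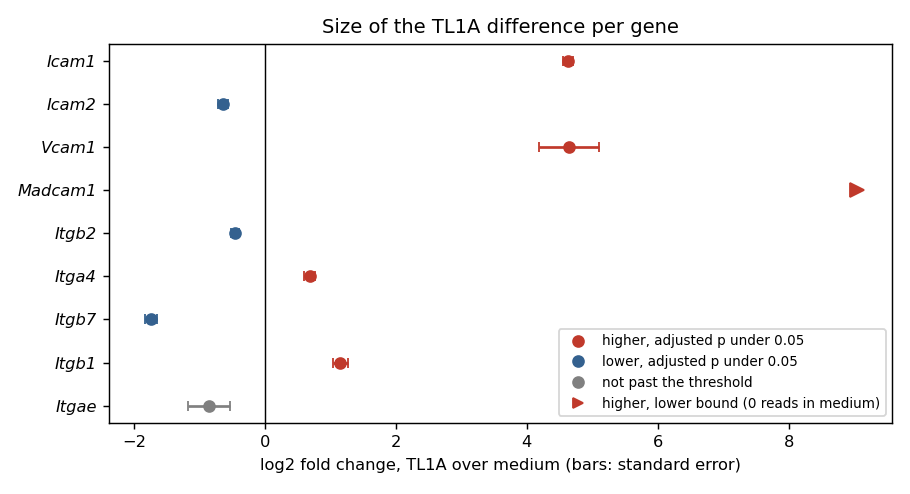
Log2 fold change of TL1A over medium for the 9 tested genes (points) with its standard error (bars); colour gives the direction of genes past an adjusted p of 0.05 and grey the gene that did not pass. Madcam1, with 0 reads in medium, is drawn at its lower bound of 9.04; Icam1 and Vcam1 lie near 4.6 and Itgb7 is the lowest, at -1.74.

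The closest patterns to that of Icam1 over the 4 libraries, by Euclidean distance of centred log2 (CPM + 0.5), were those of Icosl (0.0942), a T cell costimulatory ligand gene, Tnfsf11 (0.132), which encodes RANKL, Gadd45b (0.133), a stress response gene, Ncr1 (0.134), which encodes the receptor NKp46, and Efcab3 (0.173, on 1 read in each medium library). The closest to Madcam1 were Csf2 (0.197), which encodes GM-CSF, the chemokine gene Cxcl16 (0.282), the transcription factor gene Egr2 (0.41), Iltifb (0.427), a near-identical copy of Il22 whose reads may be divided between the copies, and Idi2 (0.474, on 1 read in each medium library). With 4 libraries in 2 groups, such a distance mostly reflects the size of the difference between the groups after 0.5 CPM is added. For genes with a medium level near 0, Madcam1 among them, the added 0.5 CPM largely sets that size. Efcab3, with a fitted log2 fold change of 7.25, thus stood near Icam1, at 4.62. Csf2 (6.91) and Idi2 (10.09) both stood near Madcam1.

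Icam1 lies in a run of related genes, and its neighbours were read in the same libraries, chosen after their values were seen. Icam4, directly after it, had 408 and 461 reads with TL1A and 234 and 225 in medium (log2 fold change 1.13, SE 0.14, edgeR adjusted p = 0.000663). Icam5, the next, had 47 and 69 reads with TL1A and 3 and 1 in medium. Both encode further ligands of leukocyte integrins, and their libraries did not overlap between conditions. Zglp1, the gene after these, had 39 and 51 reads with TL1A and 15 and 17 in medium. On the other side, S1pr2 had 954 and 1167 reads with TL1A and 245 and 173 in medium, while Mrpl4, which lies between it and Icam1, differed by 0.24 on the log2 scale (SE 0.10; adjusted p = 0.0939 in edgeR).

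Of 21 other integrin chain genes, 8 had enough reads to be tested; of the 13 that did not, 6 have several deposited rows, for which the counts are no measure of the gene. Of those tested, 2 rose, 2 fell and 4 did not pass (25.0% higher and 25.0% lower, against 20.6% higher and 21.7% lower among all tested genes), with a median log2 fold change of -1.03 against -0.0294 for all tested genes. The negative median came from the low-count genes Itga1, Itga2b, Itga3, Itga10 and Itgax. The summed level of the list was 834.1 and 764 CPM with TL1A and 340 and 341.7 CPM in medium. Most of that difference was Itgb3. Itgb3, the beta3 chain of the vitronectin receptor, had 632.3 and 553.5 CPM with TL1A and 134.6 and 150.2 CPM in medium, a log2 rise of 2.06 (SE 0.10; adjusted p = 4.08e-06 in edgeR). Itgav, the alpha partner of beta3, had 109 and 125.9 CPM with TL1A and 87.8 and 98.3 CPM in medium (log2 fold change 0.34, SE 0.11, edgeR adjusted p = 0.0459); the call was lost without scaling factors (adjusted p = 0.603), without medium replicate 1 (0.173), without TL1A replicate 2 (0.255) and with the replicate number as a block (0.0592). Itga3, a laminin receptor chain, fell by 2.24 (SE 0.38), on 18 and 19 reads with TL1A and 125 and 77 in medium. Itga10, a collagen receptor chain on 15 and 11 reads with TL1A and 38 and 41 in medium, had an adjusted p of 0.0312, and its call was lost when any 1 library was left out (adjusted p from 0.06 to 0.16), with the replicate number as a block (0.0597) and with DESeq2 (0.19).

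Genes that switch integrins on or tie them to actin moved in both directions. Of 37 listed, 23 were tested, 4 rose, 10 fell and 9 did not pass (17.4% higher and 43.5% lower, against 20.6% higher and 21.7% lower among all tested genes), with a median log2 fold change of -0.109, against -0.0294 for all tested genes. Lpxn, which encodes the focal adhesion adaptor leupaxin, had 707.1 and 626.3 CPM with TL1A and 1610 and 1672 CPM in medium, and fell by 1.30 (SE 0.08; adjusted p = 1.25e-05 in edgeR). Rassf5, which encodes the LFA-1 activator RAPL, fell by 0.89 (SE 0.08), and Parvb, which encodes the actin-linking parvin beta, fell by 0.99 (SE 0.09). In the other direction Rap1b, which encodes a small GTPase of integrin activation, had 287.3 and 274.1 CPM with TL1A and 119 and 137.6 CPM in medium, and rose by 1.13 (SE 0.09). Fermt3, which encodes the leukocyte kindlin, rose by 0.43 (SE 0.07, edgeR adjusted p = 0.00178), a call lost without scaling factors (adjusted p = 0.0534). Talin, the link between integrins and actin encoded by Tln1, had 732.9 ± 44.1 CPM with TL1A and 691.5 ± 34.1 CPM in medium, with overlapping groups (log2 fold change 0.08, SE 0.07, edgeR adjusted p = 0.396; -0.17 without scaling factors).

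Further adhesion molecules of the immunoglobulin superfamily moved in both directions. Of 31 listed genes, 19 were tested, 9 rose, 6 fell and 4 did not pass (47.4% higher and 31.6% lower, against 20.6% higher and 21.7% lower among all tested genes), with a median log2 fold change of 0.262. Cd47, which encodes an integrin-associated protein, had 355 and 353.9 CPM with TL1A and 76.4 and 81 CPM in medium, and rose by 2.17 (SE 0.08). Slamf7, a homophilic receptor gene, rose by 2.91 (SE 0.22). Cd96, a gene of a receptor for nectin-like molecules, fell by 1.02 (SE 0.08). Tigit, which encodes an inhibitory receptor of the same kind, had 17 and 10 reads with TL1A and 176 and 168 in medium (log2 fold change -3.44, SE 0.32).

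Selectin ligands were measured mainly through the enzymes that build them. Of 19 listed genes, 9 were tested, 4 rose, 1 fell and 4 did not pass (44.4% higher and 11.1% lower, against 20.6% higher and 21.7% lower among all tested genes), with a median log2 fold change of 0.764. Chst2, a sulfotransferase gene of selectin ligand synthesis, rose by 2.12 (SE 0.12), the fucosyltransferase gene Fut4 by 1.62 (SE 0.15) and the galactosyltransferase gene B4galt1 by 0.97 (SE 0.09), whereas the sialyltransferase gene St3gal6 fell by 1.92 (SE 0.17). Selplg, which encodes the P-selectin ligand PSGL-1, had 1722 ± 77.3 CPM with TL1A and 1754 ± 79.9 CPM in medium, with overlapping groups (log2 fold change -0.03, SE 0.06, edgeR adjusted p = 0.771); without scaling factors it was called lower (-0.29, adjusted p = 0.00693). Cd44, with 6 deposited rows, had only 39 and 45 reads with TL1A and 4 and 3 in medium, so its level is uncertain.

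Of 19 listed integrin ligand genes of matrix and epithelium, 4 were tested, 3 rose and 1 did not pass (75.0% higher, against 20.6% among all tested genes), with a median log2 fold change of 1.17. Tnc, which encodes the matrix protein tenascin-C, had 425.2 and 372.5 CPM with TL1A and 41.7 and 24.3 CPM in medium, and rose by 3.60 (SE 0.22). Lamc1, a laminin chain gene, rose by 0.71 (SE 0.12). Thbs1, the thrombospondin-1 gene, rose by 1.63 (SE 0.36) on 52 and 44 reads with TL1A and 18 and 18 in medium, a call lost without TL1A replicate 1 (adjusted p = 0.0657). Fn1, the fibronectin gene, had 0 reads in its 7 rows, which as for Itgal is no measure of the gene.

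Of 18 listed genes of shedding and recycling, 13 were tested, 3 rose, 2 fell and 8 did not pass, near the share over all genes (23.1% higher and 15.4% lower, against 20.6% higher and 21.7% lower among all tested genes), with a median log2 fold change of 0.0918. Msn, which encodes moesin, a protein that links ICAMs and CD44 to actin, had 3587 and 3581 CPM with TL1A and 2448 and 2453 CPM in medium, and rose by 0.55 (SE 0.05). Rab21, a GTPase gene of integrin recycling, rose by 0.94 (SE 0.14). Rab5a, of early endosomes, rose by 0.53 (SE 0.16; adjusted p = 0.0325 in edgeR), a call lost without scaling factors (adjusted p = 0.195), with DESeq2 (0.108), with the replicate number as a block (0.0699) and when any 1 library was left out (0.0501 to 0.125). Mmp9, a matrix protease gene, fell, on 1 and 1 reads with TL1A and 25 and 18 in medium.

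**Figure D5:**
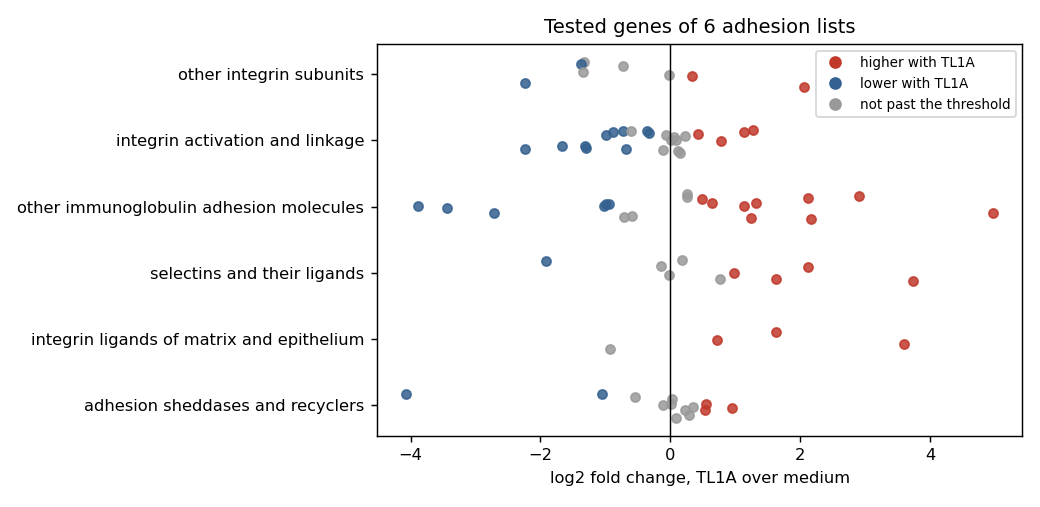
Log2 fold change of TL1A over medium for each tested gene of 6 adhesion lists, 1 point per gene, placed at random heights within its list; red and blue mark genes past an adjusted p of 0.05. Integrin activation and linkage holds 10 lower and 4 higher genes, and the other immunoglobulin adhesion molecules hold 6 lower and 9 higher.

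Since Madcam1, Vcam1 and Icam1 are known from endothelium and stroma, the markers of such cells were read in the same libraries. Among all tested genes, 20.6% were higher with TL1A and 21.7% lower, the shares to set beside the counts below. Of 12 endothelial markers, 2 were tested, none rose, 1 fell and 1 did not pass. In this list 7 had 0 reads in every library, the single-row genes Cdh5 and Kdr among them. Of the 10 not tested, 3 have several deposited rows, for which the counts are no measure of the gene. Their summed level was 15.4 and 20.8 CPM with TL1A and 34.9 and 32 CPM in medium. Of 11 markers of fibroblastic stroma, 2 were tested and both rose: Thy1, which ILC3s also express, had 709.8 CPM with TL1A and 146.4 CPM in medium, and Lum had 662 and 876 reads with TL1A and 11 and 13 in medium. The summed level of this list was 756.9 and 801.2 CPM with TL1A and 136.2 and 159.3 CPM in medium. In it 6 markers, including the single-row gene Col1a1, had 0 reads in every library, and Pdgfrb had 1 read in all, over 2 rows. Of its 9 markers not tested, 4 have several rows, and their counts are no measure of the gene. The part of this list in the Vcam1, Madcam1 and Icam1 differences was not tested. Of 14 myeloid markers, 10 were tested, 2 rose, 3 fell and 5 did not pass. This list summed to 790.7 and 775.3 CPM with TL1A and 1658 and 1835 CPM in medium. Most of that difference was Fcer1g. Without Fcer1g, the sums were 88.08 and 96.91 CPM with TL1A and 97.54 and 115.3 CPM in medium. Csf1r had 4.59 ± 0.879 CPM with TL1A and 5.10 ± 1.69 CPM in medium, and Itgam had 0 reads. Of 12 T cell markers 7 were tested, none rose, 3 fell and 4 did not pass (0.0% higher and 42.9% lower). The list summed to 213.3 and 207.4 CPM with TL1A and 501.7 and 517.2 CPM in medium. Most of the difference was Cd4, at 95.04 CPM with TL1A and 372.3 CPM in medium. Without Cd4, the T cell list summed to 107.3 and 123.2 CPM with TL1A and 145.4 and 129.0 CPM in medium. Cd3g had 2.93 ± 0.729 CPM with TL1A and 2.40 ± 1.26 CPM in medium. Of 9 B cell markers 3 were tested, 2 rose and 1 fell (summed 850.6 and 778.4 CPM with TL1A, 158.5 and 169.5 CPM in medium), most of it Blk, with 0 reads for Ms4a1. Without Blk, the sums were 115.3 and 98.89 CPM with TL1A and 41.25 and 50.41 CPM in medium. Cd79b also rose, with 105.9 CPM with TL1A and 41.55 CPM in medium. Cr2 fell, with 1.165 CPM with TL1A and 3.66 CPM in medium. Epithelial markers summed to 2.79 and 1.38 CPM with TL1A and 11.2 and 4.87 CPM in medium, with Epcam at 1 read in all.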

How the data were processed

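The authors deposited raw read counts per RefSeq transcript for 4 libraries; per the submitters' processing notes CASAVA, STAR, HTSeq and build mm9 were used. Per the labels' protocols, cDNA came from the SMARTer Ultra Low Input RNA Kit. Of 33535 rows, 33154 matched a symbol in the RefSeq table of GRCm38.p6, used for names only, and rows were summed to 24343 genes. The 5 HTSeq summary rows, which name no gene and held 69.9% to 71.3% of each column, were left out. Reads in exons shared by several rows are ambiguous and uncounted (33.7% to 34.0% of assigned plus ambiguous reads); 9 of the 10 genes described have 1 row, and Itgal has 4. Many listed genes that were not tested have several rows. They were 10 of 14 for integrin activation and linkage, 7 of 11 for other immunoglobulin molecules and 6 of 10 for selectins and ligands. They were 3 of 13 for ligands of matrix and epithelium and 5 of 5 for shedding and recycling. Some genes counted as risen or fallen in the adhesion lists also have several rows: Cd44, Fyb, Cd84, Lims1 and Sipa1l1. The same limit holds for their counts.

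The test was edgeR's quasi-likelihood test (edgeR 4.0.16, R 4.3.3; filterByExpr, minimum count 10; TMM; two-sided, Benjamini-Hochberg, threshold 0.05), with group as the only term. The code was checked on simulated counts with few changed genes and a single spread for all genes. That check cannot speak to error control in these data, where 42.3% of tested genes were called. Alternatives used limma 3.58.1, DESeq2 1.42.0, other scalings, filters, replicate blocks and single libraries left out. The SE is the log2 fold change over the square root of F. With 2 libraries against 2, chi-square per degree of freedom between replicates was 7.98 for TL1A and 12.3 for medium, so none is a repeat deposit. The Madcam1 floor covers counting error only, whereas the SE also rests on the spread between libraries. The members, the 6 adhesion lists and the cell type marker lists were chosen with earlier results of these data known. From each adhesion list the text names up to 4 tested genes with the smallest p, and 10 genes whatever their value, except items that are not reported here. ILC3, ILC1 and NK, ILC2 and red cell markers were also read.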

Additional observations from a re-analysis of the deposited data

How the results depend on the processing

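Each of the 8 genes of the set past the threshold kept its direction and its call under all 12 alternatives, with log2 fold changes from 4.37 to 4.71 for Icam1, 4.10 to 5.18 for Vcam1, 0.425 to 0.742 for Itga4, 0.892 to 1.27 for Itgb1, -0.894 to -0.568 for Icam2, -0.718 to -0.39 for Itgb2 and -1.999 to -1.63 for Itgb7. The alternative that fitted each deposited row on its own used the same counts for these single-row genes, so it was hardly a separate check. The fitted value for Madcam1 depends on how 0 reads are treated. Itgae was past the threshold only without scaling factors (log2 fold change -1.12).

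Over all genes, 4168 were called, and 3250 to 3778 when 1 library was left out. Without scaling factors 1310 were higher and 3475 lower. With the replicate block 3542 were called, and it changed no call of the set. The labels do not say what a replicate number stands for, and the deviations of same-numbered libraries correlated at -0.105; with the numbers crossed, an alternative chosen after seeing the data, 4734 were called. Selplg ranged from -0.08 to 0.048 when 1 library was left out, above 0 without medium replicate 2 (0.048) or TL1A replicate 2 (0.028), and Tln1 was negative without scaling factors (-0.174); the cause was not tested. With 2 libraries a group, an exact permutation test of a single gene cannot go below p = 0.333. Itgae rests on 26 to 70 reads a library, and the counting of shared exons limits Itgal.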

Other observations

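The marker lists not described above gave the following values. Some of their genes, Il7r, Il23r, Ncr1 and Thy1 among them, were also named above. Among all tested genes, 20.6% were higher with TL1A and 21.7% lower. Of 14 ILC3 markers 13 were tested, 5 rose, 7 fell and 1 did not pass (38.5% higher and 53.8% lower). The list summed to 17180 and 17210 CPM with TL1A and 11980 and 12630 CPM in medium. Without Il22, whose reads may be divided with its near-identical copy, the sums were 10350 and 10100 CPM with TL1A and 11930 and 12590 CPM in medium. Of 10 ILC1 and NK cell markers 6 were tested, 1 rose, 2 fell and 3 did not pass (16.7% higher and 33.3% lower). They summed to 32.3 and 23.97 CPM with TL1A and 26.4 and 13.3 CPM in medium. Of 8 ILC2 markers 7 were tested, 1 rose, 2 fell and 4 did not pass (14.3% higher and 28.6% lower). They summed to 304.5 and 278.7 CPM with TL1A and 217.4 and 232.9 CPM in medium. No red cell marker was tested.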
